A study of Mus musculus with 18 samples.

Results

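Genes that encode collagens, other proteins of the extracellular matrix and the contractile machinery of the myofibroblast were followed in female mice with a heterozygous or a homozygous deletion of the gene for the long noncoding RNA Xist. The set holds 37 genes chosen by symbol, and all 37 were found among the 46078 gene identifiers of the deposited tables. Of the 37 genes, 35 are autosomal and 2, Timp1 and Bgn, lie on the X chromosome. No member was at 0 in every library of a tissue.

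RNA depleted of ribosomal RNA was sequenced in 18 libraries from 4 sources: primary tail-tip fibroblasts, which are dermal and connective tissue cells grown out of tail clippings, and brain, liver and spleen from mice on postnatal day 1. All mice were female. Controls carried a heterozygous Xist deletion and mutants a homozygous one, so by the labels every control also lacked 1 copy of Xist. The deposited tables name the control columns WT, and these were taken to be the heterozygous controls because the labels list no wild-type sample; the files do not settle which genotype they hold. Fibroblasts had 3 libraries per genotype and each organ had 2, all described as biological replicates. Whether organs with the same replicate number came from the same mice was not stated in the labels. The age of the fibroblast donors, the strain, and the promoter of any Cre used to delete Xist were not stated in the labels. The series text names heart where the sample labels name brain, and the labels were followed. In those 4 libraries the summed level of 8 neuronal and glial markers was 6284 to 7416 and that of 5 cardiac markers was 3.50 to 5.17.

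Collagen chains assemble into triple helices inside the cell, are secreted, trimmed to fibrils and then cross-linked by lysyl oxidases. Fibronectin, fibrillins and elastin form networks around them, small leucine-rich proteoglycans set fibril spacing, and matricellular proteins such as periostin and CCN2 bind both matrix and growth factors. Fibroblasts are the main source of this matrix in connective tissue. When activated by TGF-beta or by a stiff surface they become myofibroblasts, which express smooth muscle actin (Acta2) and transgelin (Tagln). In newborn spleen, liver and brain the same genes are expressed mainly by stromal, perivascular and, for some members, parenchymal or glial cells.

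Each library held between 12356231 and 29154395 reads in genes, and 1 read equalled 0.0343 to 0.0751 units of the deposited signal, which is a library-scaled read count. Replicate libraries of a group differed by more than the sampling of reads, with chi-square values of 8.83 to 165 for each degree of freedom. Mean Xist signal in mutants was 8.66% of control in fibroblasts, 7.22% in spleen, 32.8% in liver and 0.576% in brain, so Xist reads remained in the mutants, most of all in liver. The spleen libraries differed in the markers of other tissues and cells. Summed pancreatic acinar markers were 828 and 9.01 in the controls and 13.4 and 6479 in the mutants, and summed hepatocyte markers were 299.9 and 9.01 against 374 and 26.2. All values below are from bulk RNA, in which fewer cells of a type and less RNA per cell cannot be told apart.

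The first question was where these genes are expressed in the controls. Levels were compared as reads per kilobase of exon (RPKM over the reads in genes), without a test, because each tissue's table was normalised on its own. Of the 37 members, 34 had their highest mean control level in fibroblasts, 2 in spleen, 1 in brain and none in liver. For 26 of the 34, spleen came second. The median ratio of fibroblast to organ level was 10.3 for spleen, 38.6 for liver and 53.4 for brain, and 18 members were more than 10-fold higher in fibroblasts than in each of the organs. The libraries of neighbouring tissues in the order did not overlap for 16 members.

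The most abundant members differed by tissue. In control fibroblasts the leading 5 per kilobase were Thbs1, which encodes the TGF-beta activating protein thrombospondin 1, at 2326 ± 1041 (SD, n = 3), the collagen-binding Sparc at 1889 ± 263, Col1a1, a chain of type I collagen, at 1286 ± 196, the cross-linking enzyme Lox at 1200 ± 149.5 and Col5a1 at 882 ± 32.1. Spleen was led by Sparc at 247 ± 77.0 (SD, n = 2), Eln at 233 ± 101, Thbs1 at 163 ± 98.5, Acta2 at 72.8 ± 5.10 and Tagln at 63.6 ± 3.77. In liver Fn1, whose product is also a plasma protein made by hepatocytes, stood at 642 ± 31.1 (SD, n = 2), and the next members, Thbs1 at 73.4 ± 28.7 and Sparc at 67.8 ± 9.50, were followed by Mmp14 at 21.7 ± 6.89 and Dcn at 20.0 ± 1.84. In brain the metalloproteinase inhibitor Timp2 was highest at 78.3 ± 0.613 (SD, n = 2), then Sparc at 69.6 ± 13.8, Tnc, a glycoprotein of astroglia and radial glia, at 48.5 ± 2.82, Fn1 at 17.2 ± 4.03 and Col1a2 at 13.0 ± 1.42. The order depended on the length used. By the longest coding transcript Sparc led in fibroblasts (3112, Thbs1 2416) and in brain (115, Timp2 82.2), and Eln led in spleen (489, Sparc 407). In spleen Acta2 and Tagln then ranked 9 and 8, and Col1a2 and Bgn ranked 4 and 5.

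**Figure D1:**
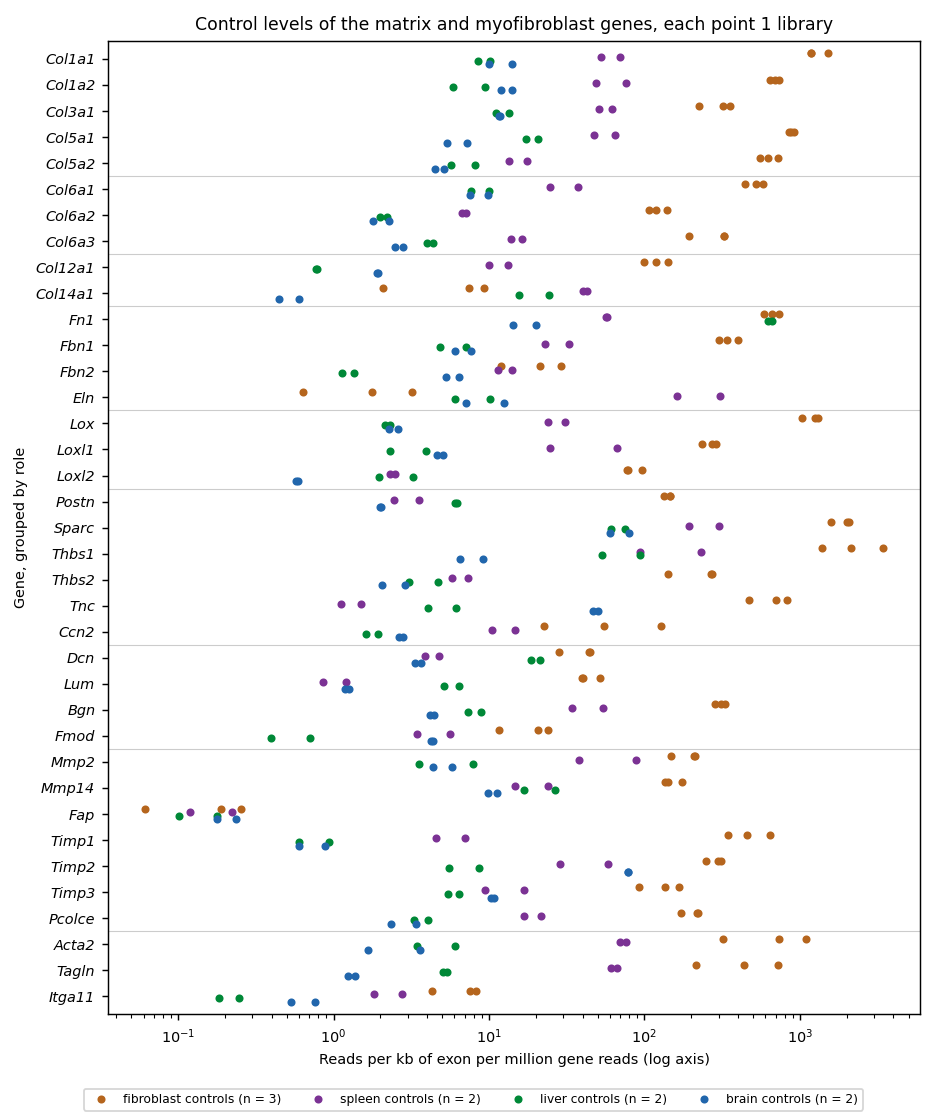
Level of each of the 37 genes in every control library (horizontal log axis, RPKM over the reads in genes), grouped by role from collagens at the top to contractile genes at the bottom; colours mark the tissue. The fibroblast mean is the highest for 34 of the 37 genes, although single fibroblast libraries of Fn1 and Fbn2 lie below libraries of liver and spleen; Eln and Col14a1 are highest in spleen and the 4 tissues share one low range for Fap.

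A few members went against the general order, and they were singled out after their values were seen: Eln, Col14a1 and Fap. Eln, which encodes the elastin precursor, was at 161 and 304 in the spleen controls and at 1.77, 3.19 and 0.638 in the fibroblast controls, a mean ratio of spleen to fibroblast of 125. Col14a1, a fibril-associated collagen, was at 40.4 and 42.8 in spleen, 24.3 and 15.7 in liver, 9.34, 7.43 and 2.07 in fibroblasts, and 0.449 and 0.599 in brain, with no overlap between neighbours. Fap, the fibroblast activation protease, lay between 0.0611 and 0.255 in every control library of the 4 tissues, and all neighbours in its order overlapped. Fibronectin (Fn1) was at similar levels in liver and in cultured fibroblasts: the fibroblast controls were at 584, 659 and 731, and the liver controls at 619.7 and 664, so the 2 tissues overlapped.

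The widest ranges between tissues belonged to 5 members. Timp1, a secreted inhibitor of metalloproteinases, ran from 345, 457 and 647 in fibroblasts through a mean of 5.79 in spleen to 0.928 and 0.598 in liver and 0.601 and 0.878 in brain, a 653-fold span of means, with liver and brain overlapping. Lox spanned 540-fold between fibroblasts and liver, and its liver and brain libraries overlapped. For Tnc the lowest tissue was spleen, at 1.12 and 1.51, 508-fold under fibroblasts, and the libraries of no neighbouring tissues overlapped. Tagln and Thbs1 spanned 351-fold and 298-fold, both lowest in brain.

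The second question was whether the genes differed between mutants and controls within a tissue. The main test was limma on log2 signal, with Benjamini-Hochberg adjustment over all genes of the tissue and without the replicate number as a block. By this test no member passed an adjusted p of 0.05 in any tissue, in either direction. The same test called 0% of all genes in either direction in fibroblasts, spleen and liver, and 0.0177% as higher and 0.00591% as lower in brain. With almost no gene called, this count cannot show whether the members differ from other genes. The smallest adjusted limma p among the members was 1.00 in fibroblasts, 0.443 in spleen, 0.336 in liver and 0.229 in brain. At an unadjusted p under 0.05, 2, 9, 3 and 2 members were higher in mutants in these tissues and none was lower, beside 0.405%, 4.69%, 4.39% and 2.08% of all genes higher and 0.566%, 1.57%, 2.28% and 1.99% lower. edgeR's quasi-likelihood test on the recovered read counts called no member in any tissue either, with 3, 10, 3 and 2 members higher at an unadjusted p under 0.05, beside 0.474%, 5.42%, 3.76% and 2.21% of all genes. DESeq2 on the same reads called 3 members in spleen, Ccn2, Lox and Dcn, and 1 each in liver and brain, Ccn2 both times, all higher in mutants. It called 0.00767%, 0.972%, 0.955% and 0.213% of all genes higher in the same order of tissues (fibroblasts first, brain last), and 0.0153%, 0.148%, 0.444% and 0.0296% lower.

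Counts of members on each side of 0 differed by tissue. The log2 fold change, mutant minus control on the log2(signal + 0.5) scale, was above 0 for 35 of 37 members in spleen, 25 of 37 in fibroblasts, 25 of 35 tested in liver and 16 of 36 tested in brain. Among all genes tested the share above 0 was 43.5% in spleen, 48.9% in fibroblasts, 55.9% in liver and 46.1% in brain. Median log2 fold changes of the members were 0.45, 0.11, 0.25 and -0.03 in the same order, beside -0.07, -0.00, 0.05 and -0.01 over all genes. The spleen and fibroblast figures rested in part on 1 library each: without spleen mutant 1 the members' median was 0.21 with 24 members above 0, and without fibroblast mutant 1 it was -0.02 with 17 above 0. In brain, leaving out mutant 2 put the median at 0.18 with 26 members above 0. In liver, leaving out mutant 1 put the median at 0.15 and leaving out control 2 put it at 0.39.

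**Figure D2:**
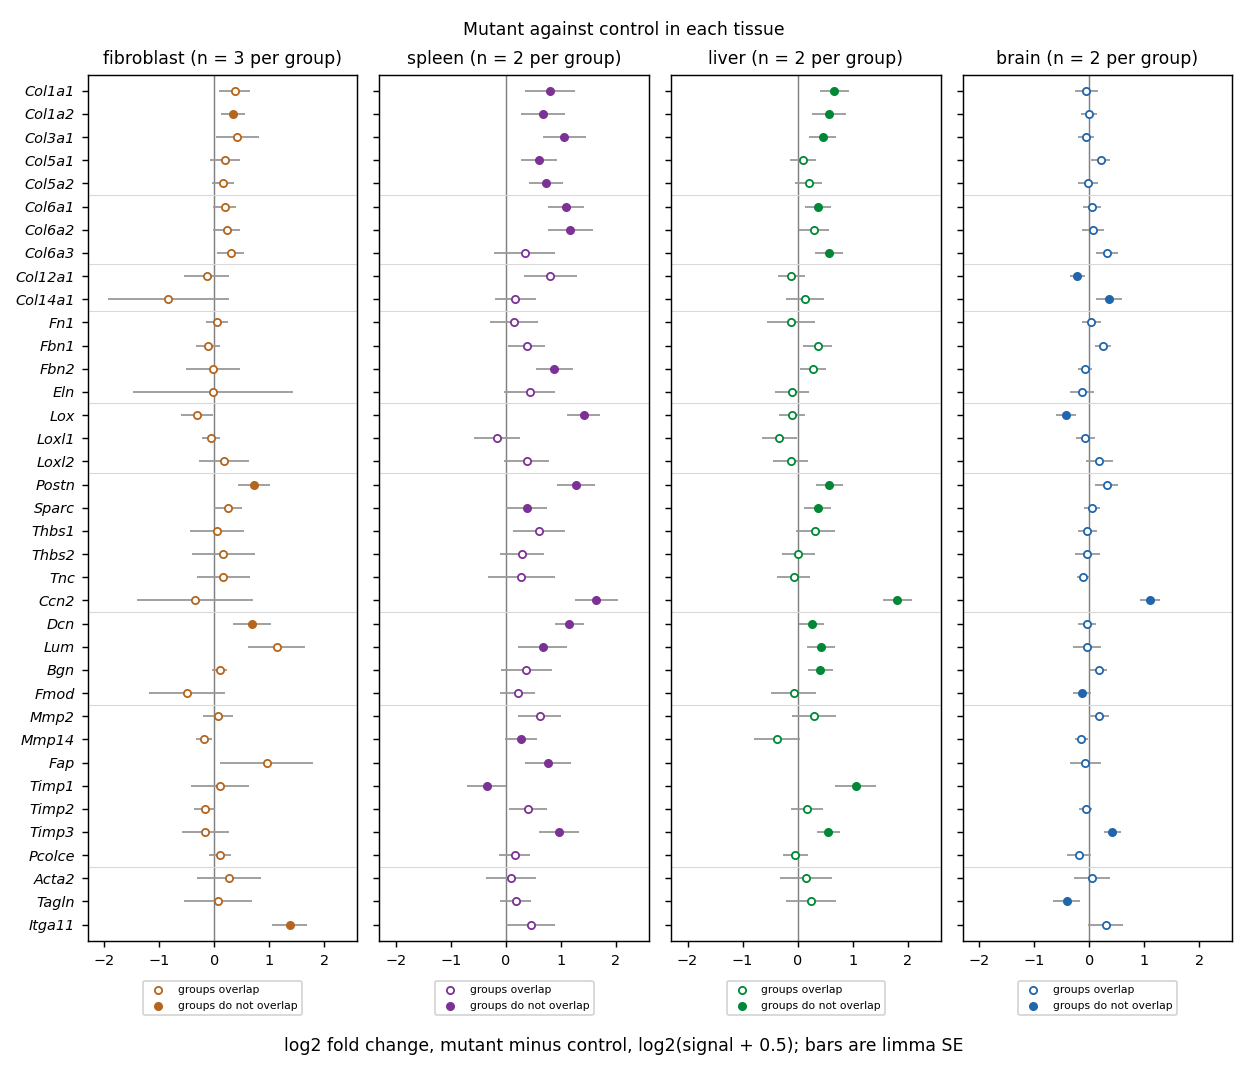
Log2 fold change, mutant minus control, of each tested member in the 4 tissues, with limma standard errors as bars; filled points mark genes whose mutant and control libraries do not overlap. Spleen points lie to the right of 0 for 35 of 37 members, brain points scatter around 0, and Ccn2 is the rightmost point in spleen, liver and brain.

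Library by library, the shift in spleen was uneven. The median level of the members relative to the mean of the 2 controls was -0.11 and 0.11 on the log2 scale in the controls, 0.90 in mutant 1 and 0.21 in mutant 2, and mutant 1 was the highest library for 31 of the 37 members. Spleen mutant 1 also stood apart in other ways. It had the fewest reads in genes of the 18 libraries, 12356231, yet 32381 genes with reads, against 25166 to 26940 in the other spleen libraries. Its 6 skeletal muscle markers summed to 46.9, against 19.0 and 9.06 in the controls and 6.70 in mutant 2, with Acta1 at 21.8 against 0.417 to 1.38. The part of these differences in the member values was not tested. In fibroblasts mutant 1 stood at 0.57 and was highest for 23 members, whereas the other 5 libraries lay between -0.08 and 0.11. As a share of all reads in genes the 37 members took 9.24%, 10.2% and 10.7% in control fibroblasts against 13.5%, 9.74% and 10.6% in mutants. In spleen they took 0.783% and 1.19% against 1.95% and 1.17%, in liver 0.919% and 1.03% against 0.891% and 1.01%, and in brain 0.231% and 0.236% against 0.259% and 0.219%. The groups overlapped in all 4 tissues.

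**Figure D3:**
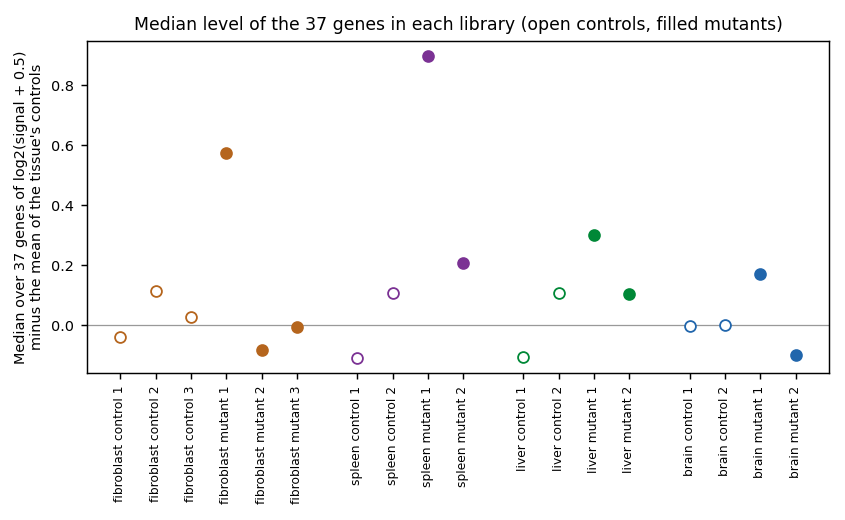
Median over the 37 genes of log2(signal + 0.5) in each library, relative to the mean of the same tissue's controls; open points are controls and filled points mutants. Spleen mutant 1, at 0.90, and fibroblast mutant 1, at 0.57, stand above the other libraries, which lie between -0.11 and 0.30.

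Ccn2 had the smallest DESeq2 adjusted p of the members in each of the 3 organs. It encodes connective tissue growth factor, a secreted matricellular protein and a textbook target of TGF-beta and of the YAP and TEAD transcription factors. In the genome (GRCm38) it lies on chromosome 10 from 24595442 to 24598683, plus strand. Its signal was 33.6 and 40.0 in spleen controls against 80.1 and 167 in mutants, 4.64 and 5.47 against 22.1 and 16.2 in liver, and 8.14 and 7.50 against 15.5 and 19.5 in brain. Every mutant organ library lay above both controls of its tissue, with ratios of means of 3.35 in spleen, 3.79 in liver and 2.24 in brain.

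The log2 fold change of Ccn2 was 1.64 ± 0.39 (SE, n = 2 per group) in spleen, 1.81 ± 0.26 in liver and 1.11 ± 0.19 in brain, with limma adjusted p of 0.510, 0.336 and 0.229. DESeq2 gave adjusted p of 0.00321, 0.000226 and 0.00299. When single libraries were left out, the DESeq2 call in spleen was lost without mutant 2 (adjusted p = 0.913), the call in liver held only without mutant 2 (0.0181; 0.494 without mutant 1), and the call in brain was lost in all 4 refits (DESeq2 adjusted p from 0.178 to 1.00). Limma itself called Ccn2 in spleen when mutant 1 was left out (adjusted p = 0.0178). Cultured fibroblasts showed no such separation. There the controls ranged from 62.9 through 159 to 373 and the mutants were at 444, 31.5 and 127, so that both extremes were mutants and the log2 fold change was -0.35 ± 1.05 (SE, n = 3 per group; limma adjusted p = 1.00).

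Besides Ccn2, only Timp3 had both mutants above both controls in each of the 3 organs. That is 2 of 37 members, 5.41%, beside 204 of 13272 genes tested in the 3 organs, 1.54%. The 37 include members under the filter on low values, as 35 were tested in liver and 36 in brain. The organs may come from the same mice, which the labels do not state, so they may not be 3 independent comparisons. Timp3 encodes a metalloproteinase inhibitor that stays bound to the matrix, and lies on chromosome 10 from 86300372 to 86349506. Its signal was 85.3 and 130 against 263 and 163 in spleen, 44.6 and 51.3 against 72.8 and 68.8 in liver, and 89.4 and 83.7 against 137 and 98.2 in brain. The log2 fold changes were 0.97 ± 0.36, 0.56 ± 0.21 and 0.42 ± 0.15 (SE), and none passed limma (adjusted p of 0.763, 0.740 and 1.00) or DESeq2 (0.273, 0.833 and 0.952). In fibroblasts the groups overlapped, with controls at 727, 1361 and 1125 and mutants at 562, 857 and 1646.

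Both genes share exon sequence with a gene on the opposite strand, and the labels do not state whether counting used strand. The antisense Gm15270 covers 23.2% of the Ccn2 exon bases and was at 1.86 to 5.57 in spleen, 0.318 to 0.618 in liver and 0.802 to 1.15 in brain, in signal that is not divided by length. The synapsin gene Syn3 covers 21.3% of the Timp3 exon bases; it was at 1.52 to 2.31 in spleen and 1.54 to 3.74 in liver but at 94.1 to 101 in brain, where the signal of Timp3 itself was 83.7 to 137. Its part in the brain value of Timp3 was not tested. Tagln shares 62.4% of its exon bases with Gm48529 and Fbn1 shares 20.1% with Gm9913, both antisense. The antisense Pcsk7 covers 5.43% of the Tagln exon bases and was at 41.2 to 45.4 in brain, where the signal of Tagln itself was lower. The part of Pcsk7 in the brain value of Tagln was not tested.

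**Figure D4:**
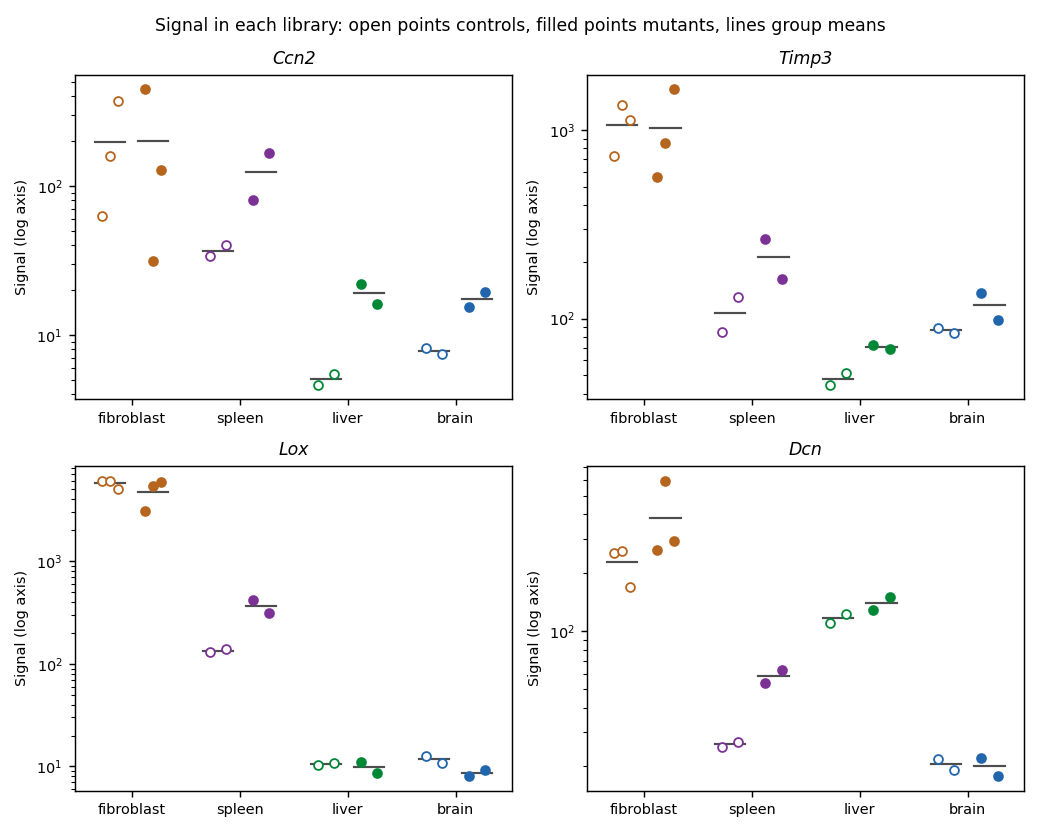
Signal of Ccn2, Timp3, Lox and Dcn in each of the 18 libraries on log axes; open points are controls, filled points mutants and lines group means. In spleen both mutants lie above both controls for all 4 genes; Ccn2 and Timp3 do the same in liver and brain, Dcn does so in liver, and the brain mutants lie below the controls for Lox.

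Spleen held the largest count of members without overlap between groups. Both mutants lay above both controls for 17 of 37 members and below for 1, Timp1, beside 18.3% and 21.9% of all genes. The 5 fibrillar collagens all belonged to the 17. Col3a1, the chain of type III collagen and a major fibre of the splenic reticulum, was at 560 and 576 in controls and 1530 and 912 in mutants (log2 fold change 1.06 ± 0.39, SE; adjusted p by limma = 0.763), and the 5 genes together ranged from 0.60 to 1.06. Of the 3 chains of the microfibrillar collagen VI, 2 did not overlap either.

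Col6a1 was at 121 and 156 against 356 and 240 (1.09 ± 0.33, limma adjusted p = 0.700) and Col6a2 at 62.5 and 56.5 against 200.4 and 89.5 (1.17 ± 0.41, 0.760). The third chain, Col6a3, was at 187 and 185 in controls and at 439 and 126 in mutants, so its 2 mutants lay on opposite sides. The fibril-associated Col12a1 and Col14a1 overlapped. Among the elastic fibre genes Fbn2, which encodes a fibrillin of developing tissue, was at 170 and 176 against 411 and 247, while Fn1, Fbn1 and Eln overlapped. For each of these genes mutant 1 was the higher mutant.

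Lox was 1 of the members that DESeq2 called. It was at 129 and 141 in the spleen controls and 417 and 310 in the mutants, a 2.70-fold ratio of means, with a log2 fold change of 1.41 ± 0.30 (SE; limma adjusted p = 0.443, DESeq2 0.00462). Its relatives Loxl1 and Loxl2 overlapped, at 91.2 and 209 against 126 and 121, and at 15.1 and 11.9 against 25.4 and 12.1. Leaving out mutant 1 or mutant 2 ended the DESeq2 call of Lox (adjusted p of 1.00 and 0.172), while leaving out control 1 or control 2 did not (0.00576 and 0.000125).

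The matricellular gene Postn, whose product periostin marks activated fibroblasts, was at 23.9 and 29.3 against 84.9 and 49.4, with a log2 fold change of 1.28 ± 0.34 (SE; limma adjusted p = 0.594, DESeq2 0.0565). Sparc did not overlap, at 816 and 1085 against 1371 and 1088, whereas Thbs1, Thbs2 and Tnc did. The proteoglycan Dcn, decorin, which binds collagen fibrils and TGF-beta, was at 25.2 and 26.6 against 53.9 and 62.9. Its log2 fold change was 1.15 ± 0.27 (SE; limma adjusted p = 0.494, DESeq2 0.0437), and mutant 2 was the higher of the mutants. The DESeq2 call of Dcn held only without control 2 (adjusted p = 0.00776; from 0.121 to 1.00 without any other library). Lum was low in every spleen library, 2.34 and 2.80 against 6.46 and 2.89, and Bgn and Fmod overlapped.

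Of the 7 genes for proteases, inhibitors and the procollagen C-proteinase enhancer, Timp3, Mmp14 and Fap had both mutants above both controls and Timp1 had both below. Fap was low at 0.758 and 1.19 against 1.88 and 2.09. The contractile genes Acta2, at 188 and 144 against 278 and 111, and Tagln, at 136 and 125 against 167 and 129, overlapped, as did the collagen receptor subunit Itga11. Markers of other cells differed between the same libraries. The summed level of 9 mesenchymal and fibroblast markers, all detected, was 1017 and 1629 in controls and 2169 and 2139 in mutants, and 7 of the 9 had both mutants above both controls; Pdgfra, the receptor that marks fibroblasts, was at 109 and 146 against 516 and 455. The 8 pericyte and smooth muscle markers, none at 0, summed to 235 and 327 against 480 and 345. Summed endothelial markers were 963 and 1486 against 1639 and 1531, and erythroid markers, none at 0, were 13611 and 4816 against 3227 and 4126. Their part in the member values was not tested.

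In liver 13 of the 35 tested members had both mutants above both controls and none had both below, beside 23.5% and 13.1% of all genes. Ccn2 led them. Col1a1 was at 56.0 and 65.7 in controls and 115 and 81.1 in mutants (log2 fold change 0.67 ± 0.26, SE; adjusted p by limma = 0.749), and Col1a2, at 72.6 and 115 against 153 and 120, and Col3a1, at 109 and 129 against 184 and 144, did not overlap either. Of the collagen VI chains, Col6a3 was at 48.1 and 51.6 against 88.6 and 62.5 (0.57 ± 0.25). Postn was at 54.7 and 52.1 against 92.7 and 68.9 (0.58 ± 0.24). All 3 lysyl oxidases were below 0, from -0.33 to -0.11, and overlapped.

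Liver mutant 1 was the highest library for 20 members, and mutant 2 for 4. Mutant 1 also had the highest sum of the 6 skeletal muscle markers, 19.1 against 4.32 and 4.06 in the controls and 1.61 in mutant 2, with Acta1 at 10.5 and Ckm at 3.57. The summed share of the members in liver followed 1 gene: Fn1 alone took 0.613% to 0.776% of reads in genes, and the ratio of mutant to control share was 0.976 with it and 1.19 without it. Fn1 itself was at 7264 and 7638 in controls and 6205 and 7533 in mutants. The proteoglycans Dcn, Lum and Bgn had both mutants above both controls, with log2 fold changes of 0.25 to 0.43, and Fmod overlapped. Fap and Itga11 were under the filter on low values, at 0.523 to 1.02 and 0.755 to 1.27, with both mutants below both controls. Summed mesenchymal markers in liver, of which 4 of 9 had a mean of at least 1 and none was at 0, were 209 and 267 in controls and 321 and 311 in mutants, endothelial markers 506 and 601 against 665 and 663, and hepatic stellate markers 389 and 384 against 364 and 366. Vim made up most of the mesenchymal sum, at 141 and 170 against 238 and 213. Reln made up most of the stellate sum, at 346 and 315 against 318 and 318, and overlapped. Of the 6 stellate markers, 1 (Hand2) had both mutants above both controls and 1 (Lrat) had both below. The part of these markers in the member values was not tested.

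In brain the members were split. Both mutants lay above both controls for Ccn2, Timp3 and Col14a1, and below for Lox, Tagln, Col12a1 and Fmod, beside 13.8% and 16.3% of all genes. Lox was at 12.8 and 10.8 in controls and 8.07 and 9.23 in mutants, a log2 fold change of -0.42 ± 0.19 (SE; limma adjusted p = 1.00). Tagln, an actin-binding protein of smooth muscle, was at 2.51 and 2.70 against 1.81 and 1.87 (-0.41 ± 0.25), Col12a1 at 29.9 and 28.9 against 24.3 and 26.3 (-0.21 ± 0.13), and Col14a1 at 3.22 and 4.16 against 4.97 and 4.73 (0.36 ± 0.23). The other tested members had log2 fold changes from -0.19 to 0.32 in brain.

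Fbn1, at 75.6 and 92.1 against 111 and 89.6, and Col6a3, at 34.4 and 29.3 against 49.5 and 31.9, were among the 8 members with the smallest limma p, and both overlapped. The fibrillar collagens had log2 fold changes from -0.06 to 0.21 in brain, and none separated the groups. The genes that are abundant in brain overlapped: Timp2 was at 314 and 300.2 in controls and 269 and 321 in mutants, and Tnc at 402 and 358 against 382 and 323. Summed meningeal markers were 57.6 and 61.6 in controls and 51.0 and 53.0 in mutants, and mesenchymal markers 390 and 458 against 458 and 406. Ttr, from the list of hepatocyte markers, was at 132 and 760 in controls and 987 and 638 in mutants, so control 1 stood apart. Their part in the member values was not tested.

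Fibroblasts were the only source with 3 libraries per genotype, and 4 members separated the groups there, all with mutants above: Itga11, Postn, Dcn and Col1a2, beside 2.07% of all genes higher and 1.65% lower. Itga11 encodes the alpha 11 integrin chain, a receptor for fibrillar collagen on fibroblasts, and lies on chromosome 9 from 62677826 to 62783982. It was at 21.5, 39.0 and 43.3 in controls and 103, 99.9 and 62.3 in mutants, a 2.56-fold ratio of means. The log2 fold change was 1.37 ± 0.32 (SE, n = 3 per group; limma adjusted p = 1.00, DESeq2 0.163). DESeq2 called it only when mutant 3 was left out (adjusted p = 0.0132).

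Postn was at 1118, 1283 and 1291 in control fibroblasts and 3152, 1678 and 1547 in mutants (0.71 ± 0.29, SE; adjusted p by limma = 1.00). Dcn was at 252, 260.1 and 168 against 263, 599 and 293 (0.69 ± 0.35), and Col1a2 at 7743, 9262 and 8732 against 12686, 9634 and 10351 (0.34 ± 0.22). For Dcn the lowest mutant and the highest control were 263 and 260.1, and for Col1a2 they were 9634 and 9262. Lum, a keratan sulphate proteoglycan of the same family as decorin, was at 94.2, 128 and 100.2 against 112, 510.5 and 225 (1.13 ± 0.52), and the groups overlapped; DESeq2 called it only when mutant 1 was left out (adjusted p = 0.0108). The fold changes of the 5 fibrillar collagens lay between 0.16 and 0.42, those of collagen VI between 0.19 and 0.30, and none passed a test.

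Many members differed widely among libraries of 1 genotype. In 11 members fibroblast mutant 1 was highest and control 3 came next: Acta2, Tagln, Ccn2, Tnc, Thbs2, Timp1, Fap, Loxl2, Mmp2, Fn1 and Col12a1. Acta2 was at 679, 1626 and 2445 in controls and 2980.4, 968 and 1612 in mutants, and Tagln at 411, 875 and 1455 against 1697, 439 and 803. Both contractile genes and Ccn2 were lowest in control 1 or mutant 2 and highest in mutant 1. In 3 members the order was turned round, with mutant 2 highest and mutant 1 lowest: Eln, Col14a1 and Fmod. Eln was at 13.8, 26.1 and 5.25 in controls and 1.35, 109 and 9.85 in mutants, and Col14a1 at 63.4, 52.5 and 14.8 against 3.76, 72.8 and 28.7.

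**Figure D5:**
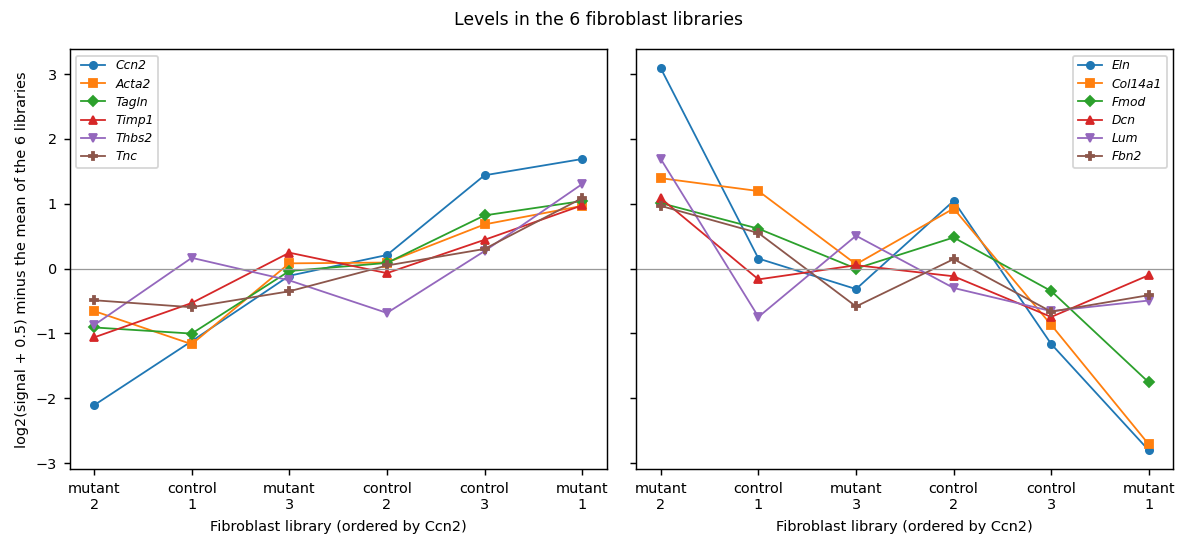
Log2(signal + 0.5) of 12 members in the 6 fibroblast libraries, relative to each gene's mean over the 6, with libraries ordered by their Ccn2 level. On the left, Ccn2, Acta2, Tagln, Timp1, Thbs2 and Tnc are highest in mutant 1; on the right, Eln, Col14a1, Fmod, Dcn, Lum and Fbn2 are highest in mutant 2.

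Summed mesenchymal markers, of which Tcf21 was at 0 in every fibroblast library, were 7605, 6960 and 8097 in control fibroblasts and 9610, 5722 and 7597 in mutants. Pericyte and smooth muscle markers were 200.3, 176 and 287 against 392, 161 and 162, and leukocyte and endothelial markers did not exceed 10.4 in sum in any library. The libraries with the most Acta2 and Tagln, mutant 1 and control 3, also had the highest sums of both lists. What part this has in the member values was not tested.

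Timp1 and Bgn are the members on the X chromosome, which Xist silences in female cells. Bgn, the matrix proteoglycan biglycan, was at 1952, 1924 and 1764 in control fibroblasts against 2133, 2086 and 1811, at 235 and 314 against 552 and 223 in spleen, at 45.0 and 53.5 against 59.8 and 71.4 in liver, and at 26.2 and 26.9 against 33.8 and 26.6 in brain. Only in liver did its groups not overlap (log2 fold change 0.41 ± 0.23, SE; adjusted p by limma = 0.826). Timp1 was at 297, 409 and 584 against 844, 205 and 509 in fibroblasts, 4.55 and 5.90 against 3.53 and 4.45 in spleen, 0.827 and 0.523 against 1.38 and 2.61 in liver, and 0.546 and 0.772 against 0.581 and 0.713 in brain. In liver the log2 fold change of Timp1 was 1.05 ± 0.38 (SE; limma adjusted p = 0.733). Neither gene passed limma, edgeR or DESeq2 in any tissue where it was tested.

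The promoters of these 2 genes and of 2 fibrillar collagens that separated the groups in spleen, Col3a1 and Col5a1, are shown to set the 2 X-linked genes beside autosomal collagens. Each run is the 250 bases before the RefSeq start site in GRCm38.p6, written 5′ to 3′ on the gene's own strand, which is the plus strand for all 4. Capitals mark the letters of the elements searched on both strands: TATAAA for the TATA box, CCAAT for the box of that name, GGGCGG for the GC box, TGANTCA for AP-1, CATTCC for TEAD and CAGACA for the CAGA element. The CArG box was searched too. They lie at chr1:45311288-45311537 for Col3a1, chr2:27886175-27886424 for Col5a1, chrX:20869916-20870165 for Timp1 and chrX:73483351-73483600 for Bgn.
Col3a1: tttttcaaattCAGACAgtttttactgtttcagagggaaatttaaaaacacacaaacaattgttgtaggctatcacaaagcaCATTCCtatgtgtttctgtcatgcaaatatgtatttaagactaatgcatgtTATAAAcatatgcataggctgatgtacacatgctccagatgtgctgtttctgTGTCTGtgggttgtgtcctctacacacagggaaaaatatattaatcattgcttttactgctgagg
Col5a1: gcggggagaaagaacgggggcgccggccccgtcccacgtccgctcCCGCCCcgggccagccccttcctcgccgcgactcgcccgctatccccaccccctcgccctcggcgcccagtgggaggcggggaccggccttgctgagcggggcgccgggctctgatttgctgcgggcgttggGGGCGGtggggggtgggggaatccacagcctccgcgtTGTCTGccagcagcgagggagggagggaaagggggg
Timp1: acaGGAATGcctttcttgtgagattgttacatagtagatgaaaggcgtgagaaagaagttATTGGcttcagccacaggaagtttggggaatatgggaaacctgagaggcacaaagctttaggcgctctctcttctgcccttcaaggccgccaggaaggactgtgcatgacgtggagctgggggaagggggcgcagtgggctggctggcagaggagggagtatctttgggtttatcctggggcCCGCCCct
Bgn: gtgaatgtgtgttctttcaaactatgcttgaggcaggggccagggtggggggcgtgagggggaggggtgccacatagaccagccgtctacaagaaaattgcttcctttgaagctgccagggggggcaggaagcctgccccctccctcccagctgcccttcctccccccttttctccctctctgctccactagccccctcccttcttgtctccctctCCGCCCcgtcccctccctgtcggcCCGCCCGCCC

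Col3a1 held the TATA letters at 117 bases, the TEAD letters at 168 bases and the CAGA letters at 239 and 65 bases before the start. Col5a1 held the GC box at 205 and 73 bases, and the CAGA letters at 36 bases. Timp1 held the TEAD letters at 247, the CCAAT letters at 190 and the GC box at 8 bases, and Bgn held the GC box at 34, 10 and 6 bases, the last 2 overlapping by a pair of bases. Of the 37 members, 20 had an entry in the promoter table. Among these 20, 11 held the GC box, 6 the CAGA letters, 5 the CCAAT letters, 4 the TEAD letters, 3 the TATA letters, 1 the AP-1 letters and none the CArG box. Of all 32851 promoters in the table, 32.7%, 17.1%, 33.8%, 12.6%, 12.4%, 6.75% and 1.47% held them. A match describes letters only, and binding was not measured.

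Genes of 7 related lists were read in the same fits. Neither limma nor edgeR called any of them in any tissue. DESeq2 called 4 of 110 tested in spleen, all higher, beside 0.972% of all genes, and 1 higher and 1 lower of 108 tested in liver, beside 0.955% and 0.444%. In spleen these were Adamts1, a matrix protease of vessels, at 28.1 and 29.6 in controls and 144 and 84.0 in mutants (log2 fold change 1.91 ± 0.33, SE; DESeq2 adjusted p = 0.000109), the basement membrane collagen Col15a1 at 13.5 and 12.5 against 122 and 21.8 (DESeq2 0.00563), the TGF-beta co-receptor Tgfbr3 at 130.2 and 170.3 against 392 and 299.6 (0.0467), and Ccn1, a relative of Ccn2, at 22.2 and 10.9 against 92.8 and 27.1 (0.0499). In liver they were Itga2, a collagen-binding integrin chain, at 4.77 and 3.14 against 19.5 and 13.4 (DESeq2 adjusted p = 0.00228), and Pcolce2, another procollagen enhancer, which was lower in mutants at 14.5 and 10.2 against 0.714 and 2.61 (0.000646).

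The basement membrane list, which holds laminins, nidogens and type IV collagens, had all 15 genes above 0 in spleen with a median log2 fold change of 0.65, 11 of them with mutants above controls without overlap, and 11 of 15 above 0 in liver with a median of 0.13. Over all genes in spleen 43.5% were above 0 and 18.3% had mutants above controls without overlap, and 55.9% were above 0 in liver. In fibroblasts 48.9% of all genes were above 0 and 2.07% had mutants above controls without overlap. The machinery of collagen biosynthesis, prolyl and lysyl hydroxylases and chaperones of the triple helix, had 24 of 25 genes above 0 there. Its median was 0.14, beside -0.00 over all genes, and 2 of its genes had mutants above controls without overlap. Its smallest limma p belonged to P3h1, a prolyl 3-hydroxylase, at 203, 241 and 212 in controls and 349.8, 259 and 260.1 in mutants (limma adjusted p = 1.00). In the list of contractile targets of SRF and YAP, 17 genes were tested in brain, 8 lay below controls without overlap and none above, with a median of -0.09, beside 16.3% below and 13.8% above over all genes. Tpm2, a tropomyosin, was at 3.28 and 3.94 against 2.39 and 1.47 there, and Cnn2, a calponin, at 11.8 and 9.26 against 7.69 and 6.42.

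The TGF-beta pathway, with ligands, receptors, Smads and latent binding proteins, had 17 of 22 genes above 0 in spleen (median 0.24), 13 of 22 in fibroblasts (0.05), 12 of 22 in liver (0.10) and 9 of 22 in brain (-0.04). In the same order 43.5%, 48.9%, 55.9% and 46.1% of all genes were above 0, with medians of -0.07, -0.00, 0.05 and -0.01. The ligand gene Tgfb1 was at 13.4 and 12.1 in liver controls and 43.8 and 21.6 in mutants (log2 fold change 1.24 ± 0.38, SE; adjusted p by limma = 0.675, DESeq2 0.213). In brain it was at 2.02 and 1.59 against 1.16 and 0.981. Cartilage and bone matrix genes were mostly low: 10, 7, 5 and 9 of 15 passed the filter in fibroblasts, spleen, liver and brain, and none was called by any of the 3 tests.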

How the data were processed

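The files hold 1 table of values per gene for each of the 4 sources. The values are a normalised signal that the authors deposited, on the scale of counts divided by library size (CPM). HTSeq 0.6.1, edgeR and the builds GRCm38 and mm10 are named, per the submitters' processing notes, without their roles. For the aligner, the annotation release and the strand setting: not given in the sources used here. Each table was normalised on its own, so mutants were compared with controls only within a table.

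Within a library every nonzero value was a whole multiple of the smallest step, within a tolerance of 0.05, for 100% of values, and whole read counts were recovered from these steps. The main test was limma 3.58.1 with an intensity trend on log2(signal + 0.5), on genes whose mean over the table reached 1, two-sided, with Benjamini-Hochberg adjustment at 0.05 over all genes of the tissue. On this scale the fold change of low genes is understated. edgeR 4.0.16 (quasi-likelihood) and DESeq2 1.42.0 were run on the recovered reads as alternatives. Control levels between tissues were computed as RPKM over merged exons (GENCODE M21, GRCm38), with the reads in genes as the library total. Of 46078 identifiers, 45229 matched that annotation. The limma fit of the main test was first tested on simulated counts with known changes. How many of those changes it recovered is not given here. The edgeR, DESeq2 and blocked fits were not tested in this way. R 4.3.3 was used.

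Members and gene lists were chosen with earlier results of these data known. Values in every library are given for members called by any tool and for the 8 with the smallest limma p in a tissue, and control levels for the 5 most abundant per tissue and the 5 widest ranges. From the related lists, called genes and up to 2 with the smallest p are named. Other members were named after their values were seen.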

Additional observations from a re-analysis of the deposited data

Results flagged for a closer look

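Lox had fold changes of opposite sign in spleen and brain. Its log2 fold change was 1.41 in spleen, where both mutants lay above both controls, and -0.42 in brain, where both lay below. The difference between the tissues was not tested.

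Timp1, one of the X-linked members, had both mutants above both controls in liver, with a log2 fold change of 1.05, and both below in spleen, at -0.35. This difference was not tested either. Timp1 was low in both tissues, at 0.523 to 2.61 in liver and 3.53 to 5.90 in spleen.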

How the results depend on the processing

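DESeq2 on recovered reads called 3 genes in fibroblasts, 182 in spleen, 211 in liver and 41 in brain over all genes. Of these, 3 members in spleen and 1 each in liver and brain, and 4 genes of the related lists in spleen and 2 in liver, are named in the report. Without the filter on low values limma called 22 genes in spleen, 11 in liver and 13 in brain, and no member. The cause of these differences between tools and filters was not tested. With the replicate number as a block limma called 356 genes in spleen and 60 in liver, among them 3 members in spleen (Ccn2, Lox and Postn), 5 genes of the related lists in spleen and 1 in liver. The block with DESeq2 gave 2 members in spleen and 1 in liver, and with edgeR 4 in spleen. The shares of all genes called by DESeq2 and edgeR with the block are not given here, so these counts are not a result about the members. The labels give no pairing behind this block beyond the shared number, and the main test was fitted without it. In the series the organ libraries numbered 1 are listed together, before those numbered 2. Whether they share mice or preparation was not stated. Deviations of same-numbered libraries correlated at -0.08, 0.43 and 0.02 in fibroblasts, -0.03 in spleen, 0.58 in liver and 0.08 in brain. In fibroblasts not every library correlated best with its own number. Some markers followed the number in organs. Alb was at 84131 (control) and 80095 (mutant) in liver libraries numbered 1, against 49369 and 49071 in those numbered 2. In spleen Alb was at 192 and 264 against 3.40 and 9.49. Summed pancreatic acinar markers in spleen did not follow it, at 828 and 13.4 against 9.01 and 6479. Without Fn1 the liver ratio of mutant to control share was 1.19.

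With single libraries left out, by limma or DESeq2, the count of called members ranged from 0 to 1 in fibroblasts, 0 to 13 in spleen, 0 to 1 in liver and 0 to 0 in brain. In spleen the top of this range came from DESeq2 without control 2. The share of all genes called by that refit is not given here, so the count is not a result about the members. Genes of the related lists called in spleen ranged from 0 to 3. Over all genes limma called 0 to 173 in spleen, the most without mutant 2, and 6 to 112 in brain, the most without control 2. The members' median log2 fold change ranged by limma from 0.21 to 0.90 in spleen and from -0.10 to 0.18 in brain. With DESeq2 it was 0.86 without spleen control 2, 1.04 without spleen mutant 2, 0.052 without liver mutant 1 and 0.20 without brain mutant 2. Members above 0 in brain ranged from 11 to 26. Members with their highest control level in liver ranged from 0 to 1, and in brain from 0 to 1. Leaving a library out of an organ leaves 1 in that group, which is then assumed to vary like the other group. By limma the sign of the members' median changed without fibroblast mutant 1 (-0.02), brain control 2 (0.05) and brain mutant 2 (0.18), and the liver share ratio passed 1 without Fn1. Library totals and DESeq2 size factors moved the median of all genes by under 0.1 on the log2 scale, and only Thbs2 in liver and Col1a2 in brain changed sign with the scaling.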
